A study of Mus musculus with 6 samples.

Results

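Ddit3, Atf4, Xbp1, Trib3, Herpud1, Chac1, Asns and Sesn2 are 8 genes of the unfolded protein response and the integrated stress response. They were chosen by name from these pathways, with earlier results of these data known. All 8 were among the 55291 gene symbols counted, and all 8 passed the filter on low counts. Their RNA was measured in 6 libraries of cells sorted from the mammary glands of pubertal mice aged 6 weeks, with the abdominal glands of 5 mice pooled per library. Every gland was digested with collagenase and hyaluronidase for 6 to 8 hours before sorting, and cells positive for CD31, CD45 or Ter119 (endothelial, blood and red cell surface markers) were excluded. Every mouse was Adgra3-lz/+, carrying 1 allele of the adhesion receptor gene Adgra3 (whose protein is Gpr125) in which β-galactosidase is fused to the receptor's first transmembrane region. All cells were sorted for high CD49f, an integrin of basal mammary cells, and for presence or absence of β-galactosidase activity. Gpr125+ cells were taken from the TEB-distal region, where terminal end buds grow at the ductal tips (2 libraries), or from the nipple-proximal region (2 libraries). The other 2 libraries are labelled Gpr125-negative, and the labels give no region for them. The paper describes Gpr125-negative cells as taken from both regions but does not say which library held which, so these 2 libraries may differ by region. The labels do not say that the replicates came from separate sorts, so p-values measure the spread between these libraries.

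Misfolded protein in the endoplasmic reticulum (ER) activates the sensors PERK, IRE1 and ATF6. PERK and the kinases GCN2, HRI and PKR also answer other stresses, such as amino acid shortage, by phosphorylating eIF2α, which slows most translation and favours that of ATF4. IRE1 splices Xbp1 mRNA, and ATF6 raises chaperone genes. In secretory epithelia such as the mammary gland, these pathways are known for fitting the ER to its protein load. Gene counts show RNA level only: they separate neither spliced from unspliced Xbp1 nor ATF4 translation from its RNA.

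The sort was checked on Adgra3 itself, whose count covers both the intact allele and the part of the reporter allele ahead of the fusion. Adgra3 stood at 35.7 and 18.6 CPM (counts relative to library size) in the libraries labelled Gpr125-negative, at 15 and 4.83 CPM in the TEB-distal libraries, and at 19.2 and 12.3 CPM in the nipple-proximal libraries. Its RNA was therefore not lower in the libraries labelled Gpr125-negative. Against them its fitted log2 fold change (edgeR, ± SE) was -1.45 ± 0.92 for TEB-distal and -0.78 ± 0.90 for nipple-proximal libraries, neither called. The label rests on β-galactosidase activity and not on RNA, and the RNA did not follow the label. The libraries labelled Gpr125-negative are called labelled-negative below. CPM values here were scaled between libraries by trimmed mean of M values (TMM).

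Total counts ranged from 20134890 to 37296640 per library, so that 3 counts equalled 0.0804 to 0.149 CPM before TMM scaling, far under every member. Labelled-negative replicate 2 had a count for 17401 genes and the other 5 libraries for 20384 to 21963. Mitochondrial genes took 0.301% to 3.15% of counts, with no order by group. The biological coefficient of variation was 0.967, meaning a spread between replicates about as large as the mean. The basal keratin genes Krt5 (215 to 922 CPM) and Krt14 (807 to 4697 CPM) were present in every library. In bulk libraries, fewer cells of a type and less RNA per cell cannot be told apart.

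Promoter sequence is shown for 3 members because the letters of known stress response elements stood upstream of their RefSeq start sites. The RefSeq promoter table (GRCm38.p6) held all 8 members, each with 250 bases before and 50 after the start. The C/EBP-ATF response element, which ATF4 binds, was searched as TGATGNAA on both strands, and was found in Asns, Chac1, Herpud1 and Trib3, 4 of 8, against 3.97% of all 32851 promoters. The ER stress element II, searched as its letters ATTGG and CCACG with 1 base between, was found in Herpud1, against 0.0365% of all promoters. These matches did not overlap each other. A match is a description of letters and not a measured binding site. In the stretches below, written 5′ to 3′ on the gene's strand, capitals mark the matches:
Asns, chr6:7693225-7693359, minus strand, bases -150 to -16 from the start: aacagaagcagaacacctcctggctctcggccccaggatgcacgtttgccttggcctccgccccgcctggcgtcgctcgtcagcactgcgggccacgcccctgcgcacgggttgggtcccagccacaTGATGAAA
Chac1, chr2:119351042-119351191, plus strand, bases -200 to -51: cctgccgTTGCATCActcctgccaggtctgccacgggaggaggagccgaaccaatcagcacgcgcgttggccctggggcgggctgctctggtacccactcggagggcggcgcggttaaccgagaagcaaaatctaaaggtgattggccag
Herpud1, chr8:94386279-94386428, plus strand, bases -150 to -1: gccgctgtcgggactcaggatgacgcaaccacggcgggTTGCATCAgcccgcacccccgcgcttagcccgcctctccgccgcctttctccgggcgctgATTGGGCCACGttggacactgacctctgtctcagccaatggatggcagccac

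The match in Asns was on the gene's strand, and those of the ATF4 element in Chac1 and Herpud1 were on the opposite strand. In GENCODE M21 the Asns gene begins at 7693254 on the minus strand, ahead of the RefSeq start. The Asns match is therefore upstream of the RefSeq start but inside the GENCODE gene. Herpud1 held the ATF4 element at -112 to -105 and the ER stress element II at -52 to -42. Trib3 held TGATGTAA on the opposite strand at +15 to +22, within its transcript. Neither ER stress element I (CCAAT and CCACG with 9 bases between, 0.119% of all promoters) nor the XBP1-type core TGACGTGG (0.676%) was found in the 8 windows.

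Atf4 and Xbp1 encode the transcription factors of the eIF2α and IRE1 branches. Atf4 (15:80255184-80257541, GRCm38) stood at 332 and 605 CPM in the labelled-negative libraries, 317 and 621 CPM in the TEB-distal libraries, and 633 and 682 CPM in the nipple-proximal libraries. Of the 8 genes it varied least, 2.15-fold between its lowest and highest library, and both nipple-proximal libraries lay above all others. Xbp1 (11:5520659-5525893) stood at 128 and 825 CPM in the labelled-negative libraries, 128 and 544 CPM in the TEB-distal libraries, and 459.9 and 746 CPM in the nipple-proximal libraries. Replicate 1 of the labelled-negative and TEB-distal groups was low, and the groups overlapped.

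Ddit3 encodes CHOP, a factor downstream of ATF4 known for its part in stress-induced cell death. Ddit3 (10:127290774-127296288) stood at 152 and 258 CPM in the labelled-negative libraries, 204 and 831 CPM in the TEB-distal libraries, and 431 and 863 CPM in the nipple-proximal libraries. Both nipple-proximal libraries were above both labelled-negative libraries. TEB-distal replicate 1 lay between the labelled-negative libraries, and replicate 2 above both. Exons of Ddit3 overlap those of Gm4189 and Mars on the other strand in GENCODE M21, and counting ignored strand, so part of its count is uncertain. No exon of the other 7 members overlaps another gene.

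Trib3 and Chac1 are targets of ATF4 and CHOP: Trib3 encodes a pseudokinase that restrains them and AKT, and Chac1 an enzyme that degrades glutathione. Trib3 (2:152337422-152344032) stood at 137 and 124 CPM in the labelled-negative libraries, 107 and 227 CPM in the TEB-distal libraries, and 341 and 234 CPM in the nipple-proximal libraries. Chac1 (2:119351229-119354381) stood at 58.8 and 50.1 CPM in the labelled-negative libraries, 37.1 and 99.9 CPM in the TEB-distal libraries, and 119 and 154 CPM in the nipple-proximal libraries. For both genes the nipple-proximal libraries were above all 4 others on this scale.

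Asns and Sesn2 serve the amino acid arm: Asns encodes asparagine synthetase, and Sesn2 a leucine sensor that restrains mTORC1. Asns (6:7675169-7693254) stood at 90.5 and 564 CPM in the labelled-negative libraries, 193 and 423 CPM in the TEB-distal libraries, and 422 and 802 CPM in the nipple-proximal libraries. The spread within the labelled-negative pair spanned most of this range. Sesn2 (4:132492032-132510501) stood at 89.4 and 89.7 CPM in the labelled-negative libraries, 112 and 238 CPM in the TEB-distal libraries, and 194 and 294 CPM in the nipple-proximal libraries. All 4 Gpr125+ libraries were above both labelled-negative libraries.

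Herpud1 encodes an ER membrane protein that helps to degrade misfolded proteins. Herpud1 (8:94386438-94395377) stood at 49.1 and 668 CPM in the labelled-negative libraries, 117 and 561 CPM in the TEB-distal libraries, and 441 and 1416 CPM in the nipple-proximal libraries. It varied most of the 8, 28.8-fold, and its groups overlapped.

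**Figure D1:**
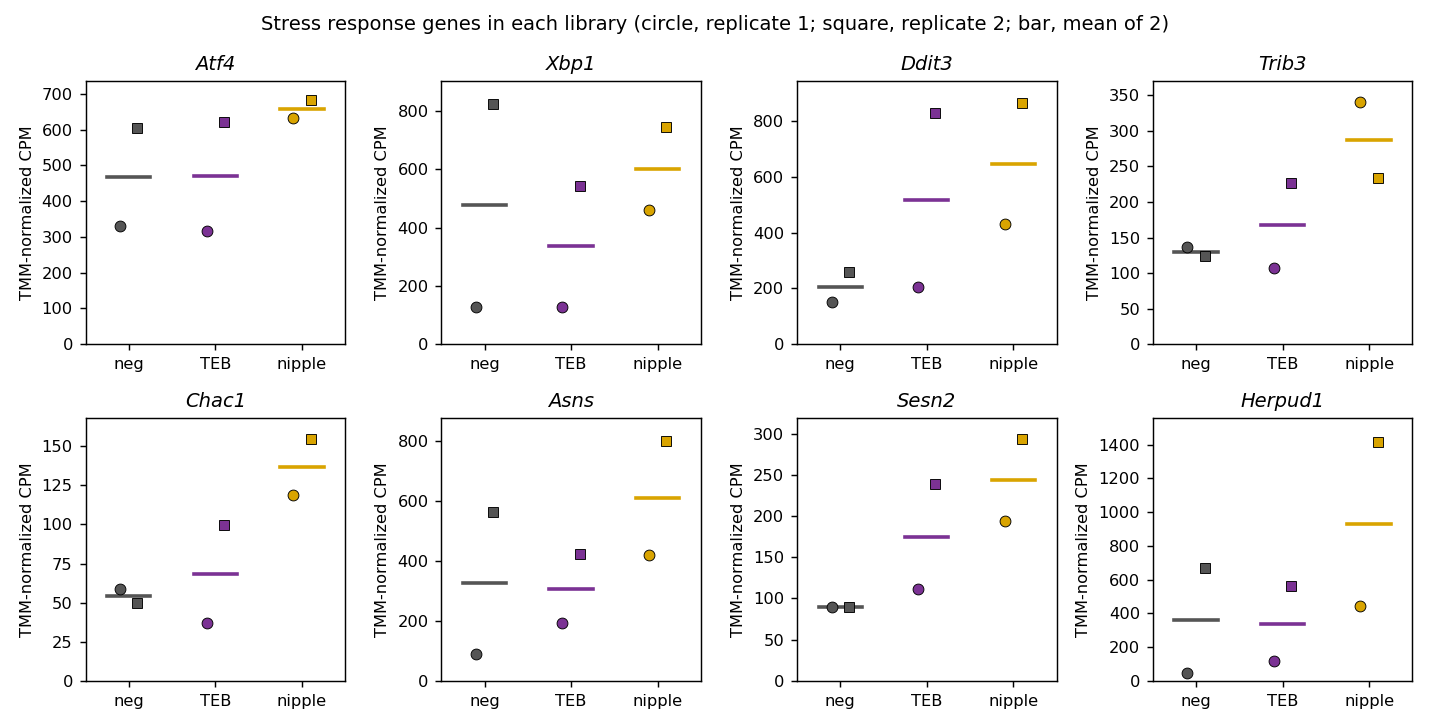
TMM-normalized CPM (linear axis from 0) of the 8 genes in each of the 6 libraries, by group, with circles for replicate 1, squares for replicate 2 and a bar for the mean of 2; neg stands for labelled-negative. Sesn2 lies at 89.4 to 89.7 CPM in the labelled-negative pair and at 112 to 294 CPM elsewhere, while Herpud1 spans 49.1 to 1416 CPM.

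Per kilobase of annotated exon, the mean level over 6 libraries was highest for Ddit3 (266 ± 185 CPM per kb, SD, n = 6), then Herpud1 (232 ± 211), Atf4 (226 ± 69.0), Asns (152 ± 93.4), Xbp1 (145 ± 91.5), Trib3 (91.8 ± 42.1), Chac1 (52.9 ± 27.8) and Sesn2 (48.8 ± 24.7). Each gap between neighbours in this order was smaller than the larger of their SDs, which span libraries and groups. Within libraries, Trib3 was above Chac1 in all 6, while the order of every other pair of neighbours changed with the library. By mean CPM, without regard to length, the members ranked from 255th (Herpud1) to 2313th (Chac1) of the 17268 genes tested.

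The replicates of a group differed in these genes. Their summed level was 1037 and 3185 CPM in the labelled-negative libraries, 1215 and 3546 CPM in the TEB-distal libraries, and 3041 and 5192 CPM in the nipple-proximal libraries. The lowest library was labelled-negative replicate 1 for 4 genes and TEB-distal replicate 1 for the other 4. Nipple-proximal replicate 2 was highest for 6 of 8, with Xbp1 highest in labelled-negative replicate 2 and Trib3 in nipple-proximal replicate 1. On library totals without TMM, labelled-negative replicate 2 became the lowest for 2 genes and nipple-proximal replicate 2 was highest for 4. With TMM, replicate 2 was above replicate 1 in each group for Ddit3, Atf4, Xbp1, Herpud1, Asns and Sesn2, but not for Trib3 and Chac1. On library totals this order also failed for Atf4 and Sesn2.

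Labelled-negative replicate 2 divided the genes. There Xbp1, Herpud1 and Asns were each above both TEB-distal libraries, whereas Ddit3, Trib3, Chac1 and Sesn2 were below TEB-distal replicate 2. Atf4 was also below it, by little (605 against 621 CPM). Over the 6 libraries all 28 pairs of members correlated positively in log2 CPM, from Trib3 with Asns (Pearson r = 0.49) to Herpud1 with Asns (0.99). Atf4 with Xbp1 (0.96), Ddit3 with Sesn2 (0.95) and Trib3 with Chac1 (0.91) were also close, whereas Xbp1 with Sesn2 was at 0.53. Without labelled-negative replicate 2, Xbp1 with Sesn2 stood at 0.98 and no pair was under 0.71. These values describe 6 libraries, or 5, that share groups and scaling.

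**Figure D2:**
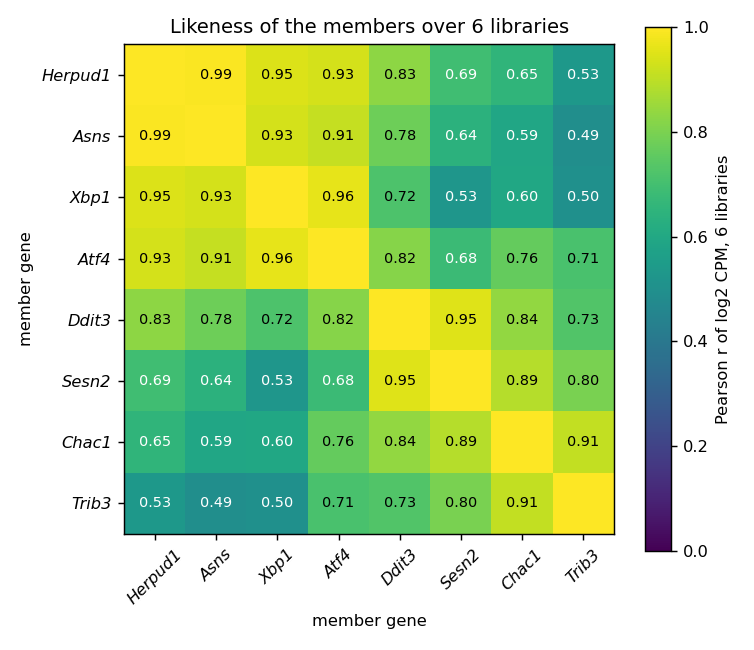
Pearson r of log2 CPM between each pair of the 8 genes over 6 libraries, as colour and number. Herpud1, Asns, Xbp1 and Atf4 form a block at 0.91 to 0.99, and Trib3 has its lowest values with Asns (0.49), Xbp1 (0.50) and Herpud1 (0.53).

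Among 8393 genes with a mean of at least 10 CPM, those most like each member over the 6 libraries were Gm4815, Krt17 and Esyt1 for Ddit3, Ifngr2, Pgk1 and Cryab for Atf4, and Mllt3, Zbtb21 and Mmadhc for Xbp1. For Trib3 they were Tfap2c, Adgrg1 and Rflnb, for Chac1 Osgin1, Sars and Zhx2, and for Sesn2 Gcc1, Rad52 and Ralb. Herpud1 was followed by Rbms3, Mthfd2 and Clca3a2, and Asns by Gramd3, Rbms3 and Wif1. Pearson r lay between 0.977 and 0.998 in each case. These genes were picked as the top 3 of 8393 by r over 6 libraries, so high values were set by that choice. Among them were Krt17, a basal keratin (r = 0.99 with Ddit3), and Sars, a seryl-tRNA synthetase (r = 0.995 with Chac1). Mthfd2, an enzyme of mitochondrial folate metabolism, was another (r = 0.99 with Herpud1). Shared regulation was not tested.

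The nipple-proximal comparison asked how Gpr125+ cells of that region differ from the cells labelled Gpr125-negative. All 8 genes had a higher fitted level in the nipple-proximal libraries than in the labelled-negative ones, with log2 fold changes from 0.34 (Xbp1) to 1.66 (Ddit3) and a median of 1.23, against a median of -0.0032 over all genes tested. None passed the test. Both nipple-proximal libraries lay above both labelled-negative libraries for Ddit3, Atf4, Trib3, Chac1 and Sesn2, 5 of 8, against 19.9% of all genes tested. For 0 of 8 were both below both, against 10.8%. The same 5 genes were separated on library totals. Since the members were chosen with earlier results of these data known, these shares describe them and are not an independent test.

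By edgeR's quasi-likelihood test the log2 fold change of Sesn2 was 1.45 ± 0.70 (SE, n = 2 and 2; 95% confidence interval -0.17 to 3.06; unadjusted p = 0.0732; adjusted p = 1, Benjamini-Hochberg over all genes). Chac1 had 1.33 ± 0.71 (SE), Ddit3 1.66 ± 0.90, Trib3 1.14 ± 0.70 and Herpud1 1.37 ± 1.31. The 3 smallest were Asns (0.90 ± 0.98), Atf4 (0.49 ± 0.74) and Xbp1 (0.34 ± 1.06). Each interval included 0 and each also included a 2-fold difference, so neither could be told from the other with 2 libraries a group. A call needed an adjusted p under 0.1 and a 2-fold difference, which 0 of 8 members and 0 of 17268 genes (0%) met in edgeR, with 613 genes and 0 members at an unadjusted p under 0.05. DESeq2 on all 6 libraries called 321 genes (1.98% of those given an adjusted p) and on the 4 compared libraries 317 genes (2.02%), again with 0 members. Herpud1 stood at 4.24 without labelled-negative replicate 2, 0.33 without labelled-negative replicate 1, 0.32 without nipple-proximal replicate 2 and 2.07 with the replicate block. Without labelled-negative replicate 1 the members' median was 0.70, against 0.40 over all genes, and the log2 fold changes of Atf4, Xbp1 and Asns were -0.016, -0.59 and -0.023.

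**Figure D3:**
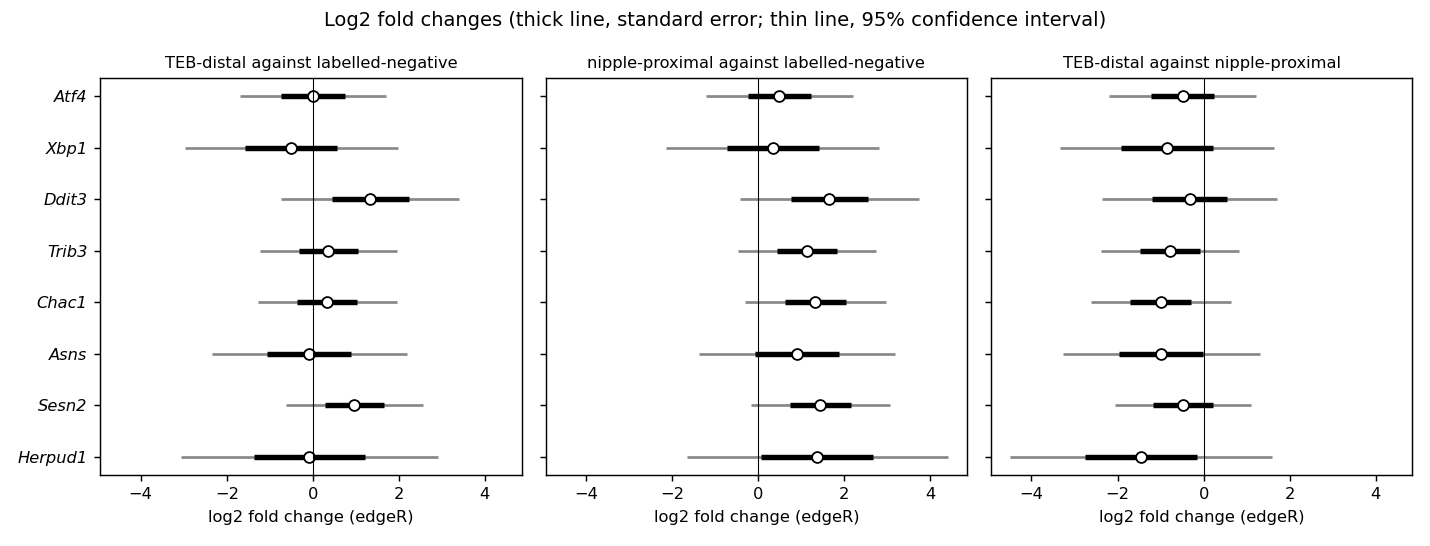
Log2 fold change (edgeR) of the 8 genes in the 3 comparisons, with thick lines for the standard error and thin lines for the 95% confidence interval. Every interval includes 0, all 8 points lie above 0 for nipple-proximal against labelled-negative, and all 8 lie below 0 for TEB-distal against nipple-proximal.

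Between TEB-distal Gpr125+ and labelled-negative cells, the same genes had no common direction with all 6 libraries in the fit. Ddit3 (log2 fold change 1.33 ± 0.89, SE) and Sesn2 (0.97 ± 0.69) had the largest values, followed by Trib3 (0.36 ± 0.69), Chac1 (0.33 ± 0.70), Atf4 (0.0016 ± 0.74), Herpud1 (-0.080 ± 1.28), Asns (-0.086 ± 0.98) and Xbp1 (-0.50 ± 1.07). Their median was 0.17, against 0.027 over all genes tested. Both the direction and the median depended on single libraries: without labelled-negative replicate 2 all 8 were above 0 (median 1.17, against 0.23 over all genes), as they were without TEB-distal replicate 1 (0.70, against -0.18). Without TEB-distal replicate 2, only 1 of 8 was above 0 (-0.56, against -0.20). Sesn2 was the only member of the 8 with both TEB-distal libraries above both labelled-negative ones, against 14% of all genes tested, and 0 of 8 had both below both, against 10%. Ddit3 rested on TEB-distal replicate 2: without it the log2 fold change was -0.017.

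In this comparison edgeR called 0 of 8 members and 0 of 17268 genes (0%), with 1045 genes and 0 members at an unadjusted p under 0.05. DESeq2 called 943 genes (5.43%) on all 6 libraries and 667 (4%) on the 4 compared, and 0 members. For Ddit3 the 95% confidence interval ran from -0.74 to 3.41 (adjusted p = 1, edgeR), and for Atf4, whose point estimate was near 0, from -1.70 to 1.70. This comparison shares its labelled-negative libraries with the nipple-proximal one, so both sets of values rest on the same 2 controls.

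Between the regions, all 8 genes had a lower fitted level in the TEB-distal than in the nipple-proximal Gpr125+ libraries. The log2 fold changes were -1.45 ± 1.31 (SE) for Herpud1, -0.997 ± 0.704 for Chac1, -0.99 ± 0.99 for Asns, -0.84 ± 1.07 for Xbp1, -0.78 ± 0.69 for Trib3, -0.49 ± 0.74 for Atf4, -0.48 ± 0.69 for Sesn2 and -0.32 ± 0.88 for Ddit3. Their median was -0.81, against 0.059 over all genes tested. It was -0.18 without TEB-distal replicate 1, -1.68 without TEB-distal replicate 2 and -0.46 without nipple-proximal replicate 2. None passed the test (adjusted p = 1 for each, edgeR).

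Both TEB-distal libraries lay below both nipple-proximal libraries for Atf4, Trib3 and Chac1, 3 of 8, against 18.3% of all genes tested, and above both for 0 of 8, against 15.2%. On library totals the separated genes were 2, Chac1 and Asns. TEB-distal replicate 2 was above nipple-proximal replicate 1 for Ddit3, Xbp1, Herpud1, Asns and Sesn2, whereas TEB-distal replicate 1 was below it for all 8. Without TEB-distal replicate 1, the log2 fold changes of Ddit3 and Sesn2 were 0.43 and 0.036. EdgeR called 0 members and 0 of 17268 genes (0%), with 381 genes and 0 members at an unadjusted p under 0.05. DESeq2 called 129 genes (0.743%) on all 6 libraries and 360 (2.29%) on the 4 compared, and 0 members.

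The other genes of the pathways were read from 4 lists, also chosen with earlier results of these data known, so their shares are descriptive. The sensors came first. Eif2ak3, which encodes PERK, stood at 8.89 and 40.5 CPM in the labelled-negative libraries, 6.43 and 19.0 CPM in the TEB-distal libraries and 15.2 and 27.5 CPM in the nipple-proximal libraries. Ern1, which encodes IRE1α, stood at 62.3 and 30.6, 6.36 and 22.4, and 34.7 and 28.7 CPM in the same order. Both sensors were lowest in TEB-distal replicate 1. Eif2ak4 (GCN2) lay between 16.1 and 52.3 CPM, highest in labelled-negative replicate 2, and Atf6 between 22.2 and 108 CPM, highest in nipple-proximal replicate 2.

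Hspa5, the main ER chaperone and a target of ATF6, had a wider range than any member. It stood at 878 and 28286 CPM in the labelled-negative libraries, 3013 and 6632 CPM in the TEB-distal libraries, and 6102 and 29952 CPM in the nipple-proximal libraries. Labelled-negative replicate 2 and nipple-proximal replicate 2 were both far above the other 4. Dnajb9, a co-chaperone induced through IRE1 and XBP1, stood at 49.9 and 1986, 1099 and 260.3, and 494 and 1702 CPM. TEB-distal replicate 1 was above replicate 2, whereas for all 8 members it was below. Atf3, a factor downstream of ATF4, lay at 109.8 and 646, 242 and 469, and 390.4 and 784 CPM. Ppp1r15a (GADD34), which restores translation by reversing eIF2α phosphorylation, lay at 668 and 1102, 704 and 1804, and 1174 and 1812 CPM.

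**Figure D4:**
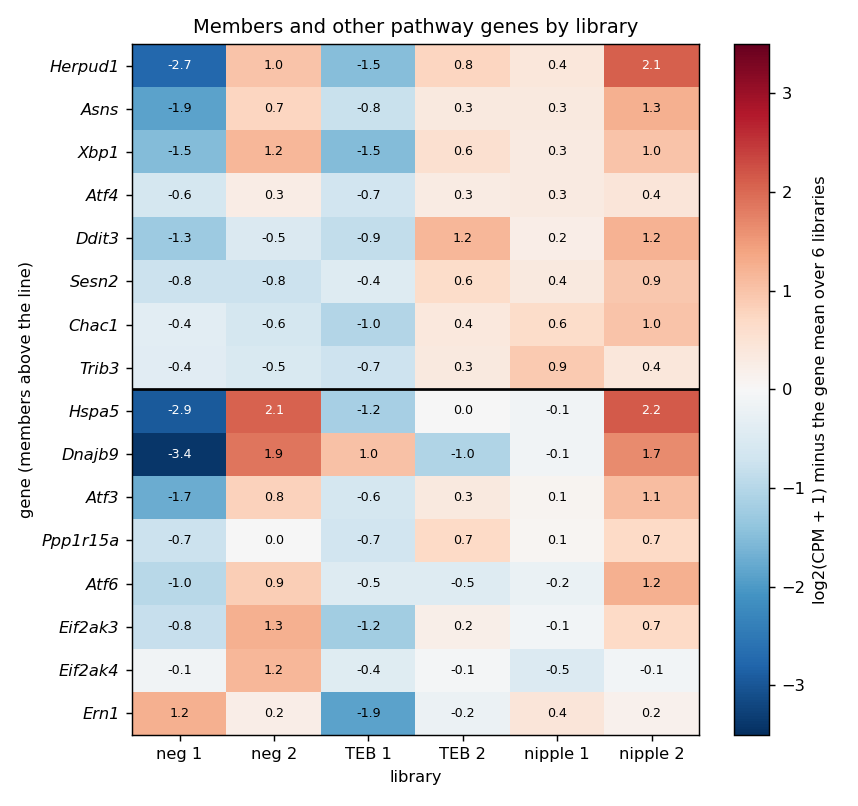
log2(CPM + 1) minus each gene's mean over 6 libraries, for the 8 members (above the line) and 8 sensors and reporters of the pathways, with the value printed in each cell. Labelled-negative replicate 1 is low for Herpud1 (-2.7) and Hspa5 (-2.9), and labelled-negative replicate 2 is high for Hspa5 (2.1) but low for Sesn2 (-0.8).

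None of the pathway lists had a gene called by edgeR in any comparison. For nipple-proximal against labelled-negative libraries, 34 of 38 other ATF4 and CHOP targets were above 0 (median 0.76), against 49.6% of all genes tested, as were 18 of 20 genes of the ER chaperones and ATF6 branch (0.77) and 18 of 21 tested genes of the IRE1 branch and ER-associated degradation (0.45). The 15 genes of the eIF2 cycle differed, with 3 above 0 and a median of -0.21. Both nipple-proximal libraries lay above both labelled-negative ones for 16 of the 38 ATF4 and CHOP targets and for 2 of the 20 chaperone genes, 3 of the 21 of the IRE1 branch and 1 of the 15 of the eIF2 cycle, against 19.9% of all genes tested, a share that the last 3 lists did not reach.

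These list values depended on single libraries. Without nipple-proximal replicate 2 the medians in this comparison were 0.32 for the ATF4 and CHOP targets, -0.23 for the chaperones and -0.16 for the IRE1 branch, and 28, 7 and 9 genes were above 0. Without labelled-negative replicate 1 they were 0.24, 0.12 and 0.13, where the median of all genes moved to 0.40, and without labelled-negative replicate 2 they were 1.499, 2.31 and 1.24.

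Pck2, a mitochondrial enzyme of gluconeogenesis, had the smallest unadjusted p of the lists in this comparison. It stood at 10.1 and 8.43 CPM in the labelled-negative libraries, 12.6 and 38.2 CPM in the TEB-distal libraries, and 60.4 and 82.5 CPM in the nipple-proximal ones, which were above the other 4. The fitted log2 fold change of Pck2 was 2.95 ± 0.81 (SE; adjusted p = 1, edgeR), and DESeq2 called it on all 6 libraries (2.78, adjusted p = 0.0860) and on the 4 compared (2.80, adjusted p = 0.0946). The next were Stc2, a secreted glycoprotein (2.39 ± 0.91), and Cth, an enzyme of cysteine synthesis (1.75 ± 0.73), neither of which was called by either tool. DESeq2 thus called 1 of 95 pathway genes on all 6 libraries and 1 of 94 on the 4 compared. The shares of all genes given an adjusted p were 1.98% and 2.02%.

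For TEB-distal against labelled-negative libraries, 23 of 38 ATF4 and CHOP targets were above 0 (median 0.20), against 51.1% of all genes tested. Cth was at 1.70 ± 0.73. The medians of the other lists were -0.49 for the eIF2 cycle, -0.22 for the chaperones and -0.12 for the IRE1 branch. Atf6b, a homologue of Atf6, had -1.85 ± 0.73 and Ern1 -1.69 ± 0.85. Of the TEB-distal against nipple-proximal values, 0 of 20 chaperone genes, 2 of 21 genes of the IRE1 branch and 9 of 38 ATF4 and CHOP targets were above 0. The share of all genes tested was 52.6%, and the list medians were -1.17, -0.69 and -0.66. Without nipple-proximal replicate 2 these medians were -0.19, -0.011 and -0.14, where the median of all genes was 0.16. Ddit4, an inhibitor of mTORC1, had -1.75 ± 0.68, and its TEB-distal libraries (30.1 and 43.7 CPM) lay below its nipple-proximal libraries (139 and 111 CPM). The chaperone genes Hyou1 (-1.99 ± 1.34) and Pdia4 (-1.92 ± 0.99) and the tRNA synthetase genes Wars (-1.84 ± 0.87) and Mars1 (-1.25 ± 0.61) were also lower in fitted level.

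None of the remaining genes with the smallest unadjusted p in each list was called by edgeR. In the eIF2 cycle, the eIF2B subunit genes Eif2b5 and Eif2b3 had -1.13 ± 0.67 and -0.90 ± 0.64 for TEB-distal against labelled-negative libraries, and Eif2b5 -0.995 ± 0.672 between the regions, where Impact, an inhibitor of GCN2, had 1.11 ± 0.91. Eif2s3x, for a subunit of eIF2, had -0.94 ± 1.11 there. Of the proteases that activate ATF6, Mbtps1 had -1.13 ± 0.92 for TEB-distal and Mbtps2 2.10 ± 1.16 for nipple-proximal against labelled-negative libraries. In ER-associated degradation, Syvn1 (1.49 ± 0.99), Sel1l (1.24 ± 0.96) and Herpud2 (1.04 ± 0.68) came first for nipple-proximal against labelled-negative libraries. Sec63 had -0.81 ± 1.03 for TEB-distal against labelled-negative libraries, and Srpr -0.89 ± 0.75 between the regions.

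**Figure D5:**
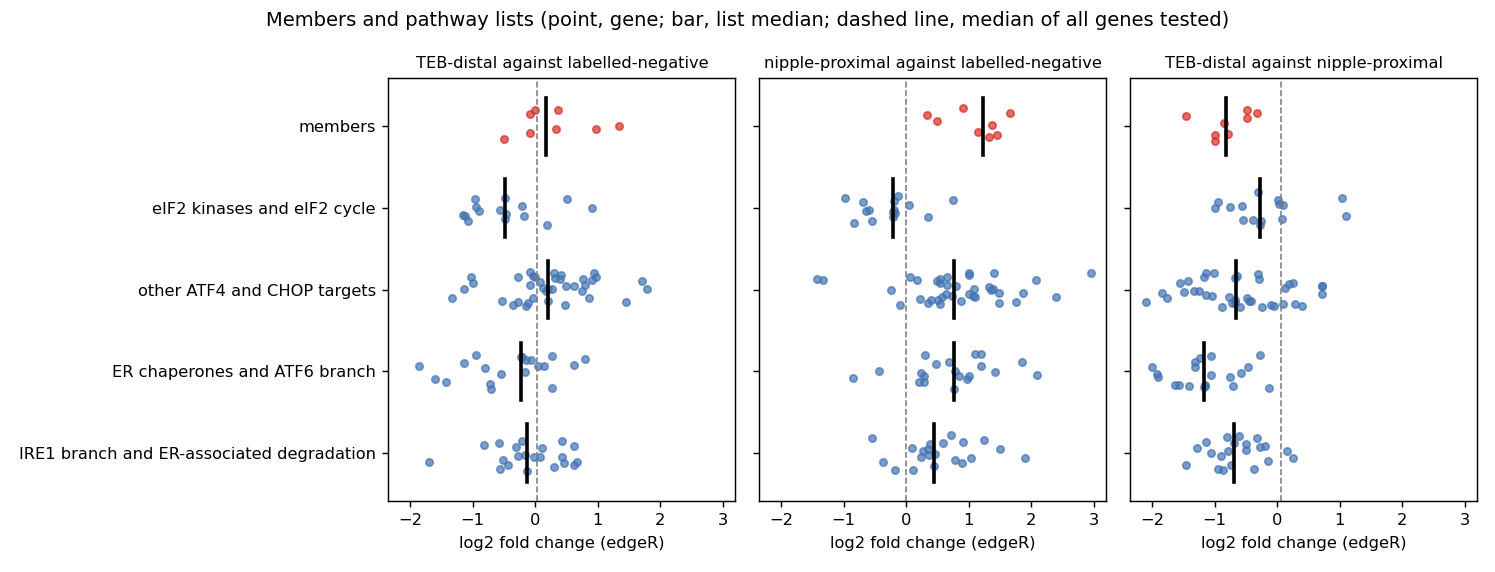
Log2 fold change (edgeR) of each member and each gene of the 4 pathway lists in the 3 comparisons; points are genes, bars are list medians and the dashed line is the median of all genes tested. The chaperone list lies wholly below 0 for TEB-distal against nipple-proximal, with a median of -1.17, and no gene was called.

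Endothelial markers moved with these groups, although CD31, CD45 and Ter119 had been used to exclude endothelial and blood cells and CD140a was also stained. The summed level of 12 endothelial markers was 1377 and 848 CPM in the labelled-negative libraries, 19.7 and 22.1 CPM in the TEB-distal libraries, and 241 and 27.7 CPM in the nipple-proximal libraries. All 12 had fitted values below 0 in both Gpr125+ groups against the labelled-negative one, and Robo4 was at 0 counts in both TEB-distal libraries. The 12 basal markers summed to 3393 and 3554, 4017 and 23031, and 9449 and 14952 CPM, lowest in both labelled-negative libraries and TEB-distal replicate 1. Those libraries were also the 3 lowest for Ddit3, Atf4, Trib3, Chac1 and Sesn2, but not for Xbp1, Herpud1 and Asns. Immediate early and dissociation-induced genes (15 genes) summed to 4843 and 30061, 15614 and 9893, and 8120 and 11179 CPM. Adipocyte markers (6) summed to 674 and 631 CPM in the labelled-negative libraries and to 1.65 to 24.4 CPM elsewhere. However, the defining genes Plin1, Cidec and Lep were at 3 counts or fewer in every library. In labelled-negative replicate 2 only Fabp4 of the list was above 3 counts, so the sum there does not show adipocytes. The sums ran from 1406 to 2928 CPM for luminal keratins, 24.8 to 371 for luminal hormone-sensing, 12.5 to 486 for luminal secretory, 24.2 to 74.2 for leukocyte, 48.3 to 121 for plasma cell, 52.7 to 214 for fibroblast and 1.67 to 24.4 CPM for pericyte markers. The part of any of these in the members' values was not tested.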

How the data were processed

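RNA of the sorted cells was made into SMART-Seq HT libraries by the authors. Per the labels and the study's methods, the authors demultiplexed with CASAVA, aligned with STAR to mm10 (2.7.3 in the submitters' processing notes, an earlier version in the methods) and counted reads per gene without regard to strand. The deposited values are raw counts per gene symbol in 6 files, with 0 rows that name no gene. The annotation release is not given in the sources used here; coordinates, exon lengths and overlaps came from GENCODE M21, which held 96.4% of the symbols.

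EdgeR 4.0.16 (R 4.3.3) was run on the counts: filterByExpr, TMM, and the robust quasi-likelihood test in 1 model of 3 groups over all 6 libraries. P-values were adjusted (Benjamini-Hochberg) over the 17268 genes tested, and a call needed an adjusted p under 0.1 and a 2-fold difference, after the study's methods. SEs and 95% intervals came from the test's F and degrees of freedom. Alternatives were DESeq2 1.42.0, RLE size factors, other filters, the 4 compared libraries alone, the replicate block and leaving out each library. The procedure was tested on simulated data.

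The members and the pathway and marker lists were chosen with earlier results of these data known. Besides members, the genes named were Adgra3, 8 sensors and reporters, the 3 with the smallest unadjusted p per pathway list and comparison, and the 3 most correlated with each member. Single marker genes and Eif2ak1 were named after the values were seen. Comparing separation on library totals was also added after seeing the data. The series' design text states 5 mice per library, while the methods describe fewer mice per preparation.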

Additional observations from a re-analysis of the deposited data

How the results depend on the processing

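None of the 8 members was called under any alternative, and the lowest adjusted p over them was 0.492, 0.530 and 0.722 for TEB-distal against labelled-negative, nipple-proximal against labelled-negative, and TEB-distal against nipple-proximal libraries. Of 312 alternative log2 fold changes of members, 284 kept their direction and 28 did not. The count of all genes called, 0 in each comparison, became 137, 58 and 39 with no filter beyond 1 count, 943, 321 and 129 by DESeq2 fitted to all 6 libraries, and 667, 317 and 360 by DESeq2 fitted to the 4 compared. Leaving out 1 library at a time gave 0 to 747, 0 to 335 and 0 to 12 calls, with the highest of the first and second comparison without labelled-negative replicate 1 and of the last without nipple-proximal replicate 2. A group left with 1 library was assumed to vary like the others. Pathway genes called went from 0 to 1 (Pck2, nipple-proximal against labelled-negative) with either DESeq2 fit, and lay between 0 and 1 on leaving out a library in both comparisons with the labelled-negative libraries. That gene was Eif2ak1, at 11 counts in labelled-negative replicate 2 and 1994 in replicate 1, the library left out. The DESeq2 call of Pck2 was 1 of 95 and 1 of 94 pathway genes, against 1.98% and 2.02% of all genes given an adjusted p. The causes were not tested.

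For TEB-distal against labelled-negative libraries, Atf4 turned to -0.059 with RLE, -0.010 with no filter, -0.0079 with a filter of 1 CPM in 2 libraries, and -0.064 and -0.069 with DESeq2 on 6 and 4 libraries. With the replicate block, Atf4, Herpud1 and Asns were -0.0093, 0.39 and 0.26. With that block Herpud1 was 2.07 for nipple-proximal against labelled-negative libraries, and no call of a member changed. Over all genes the deviations of same-numbered libraries correlated at r = -0.035, 0.19 and -0.0049, above 0.1 in 1 of 3 pairs of groups, so the numbers were not taken to pair the libraries. For Ddit3, Atf4, Xbp1, Herpud1, Asns and Sesn2, TMM-scaled CPM was nonetheless higher in replicate 2 than in replicate 1 of each group. Whether same-numbered libraries belong together is therefore not settled.

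On leaving out 1 library at a time, the TEB-distal against labelled-negative value ranged from -0.017 to 2.00 for Ddit3, -0.57 to 0.49 for Atf4, -1.90 to 1.38 for Xbp1, -0.28 to 0.79 for Trib3, -1.62 to 2.78 for Herpud1, -0.56 to 0.87 for Chac1 and -0.99 to 1.76 for Asns. The nipple-proximal against labelled-negative value ranged from -0.016 to 0.99 for Atf4, -0.59 to 2.24 for Xbp1 and -0.023 to 2.76 for Asns. The TEB-distal against nipple-proximal value ranged from -1.69 to 0.43 for Ddit3 and -1.15 to 0.036 for Sesn2. The lowest count of any member was 951 (Chac1, TEB-distal replicate 1), and an effect of depth on the members was not tested.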
